A study of Mus musculus with 103 samples.

Results

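RNA levels of protein-coding transcripts were compared between adult cortex of 2 Nsun2 KO mice and 2 WT mice. These are the 4 RNA libraries that were sequenced beside ribosome footprints, out of 103 samples listed for the series, and every one of the 12719 transcripts with an RNA value was considered. The study as a whole examined how loss of neuronal Nsun2 affects tRNA, translation and behaviour, and the question here is which mRNAs differ in level between the genotypes. KO mice carried floxed Nsun2 alleles together with a Camk2a-Cre transgene. WT mice were floxed and carried no Cre, so a floxed Nsun2 allele was common to both genotypes. Per the study's methods its controls could carry either a pair of floxed alleles or a single one, and which of these the 2 WT mice carried was not given in the sources used here. Camk2a drives Cre in excitatory forebrain neurons, and inhibitory neurons, glia and vessels of a KO cortex keep Nsun2. The libraries come from whole tissue, and the sex of the mice was not given in the sources used here. Every value below is a read count per transcript divided by 1 factor per library, called the RNA value, and the footprint values of the same mice are cited only for context.

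Nsun2 is an RNA methyltransferase that places 5-methylcytosine on tRNAs and some other RNAs. The mark protects tRNAs from cleavage. When charged tRNA is scarce, or when other stresses act on the cell, kinases phosphorylate the initiation factor eIF2, general translation slows and translation of the transcription factor ATF4 goes up. ATF4 and its partner CHOP (gene Ddit3) then switch on genes for amino acid synthesis, amino acid uptake and tRNA charging, a programme known as the integrated stress response. Neurons depend on long mRNAs for ion channels and receptors and on short mRNAs for ribosomes and mitochondria, and all of these classes were measured.

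The RNA libraries were of like depth. Each value was a whole multiple of 1 step per library, and if a step is 1 read the libraries held 10465003 and 11799895 reads in KO mice, against 13174377 and 11327206 reads in WT mice. The lowest value in any library was 5 or 6 steps, so transcripts near 0 in some mouse had been filtered out before deposit. On the log2 scale the KO mice correlated with each other at 0.992 and the WT mice at 0.990 over 12674 transcripts, and a KO with a WT mouse at 0.982 to 0.988. The median SD between mice was 0.09 in KO and 0.12 in WT on the log2 scale. Nothing in the labels says whether mice shared a litter or a preparation.

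Nsun2 itself had RNA values of 362 and 368 in KO mice, against 1292 and 1120 in WT mice. Both KO mice were far below both WT mice, and the log2 fold change was -1.72 (SE 0.12; limma, adjusted p = 2.54e-05). Footprints on Nsun2 were 30.4 and 23.0 in KO mice, against 130 and 114 in WT mice. In bulk tissue, fewer cells that express a gene and less RNA per cell cannot be told apart. The Nsun2 transcript ENSMUST00000109699 lies on the plus strand of chromosome 13 (GRCm38, chr13:69612016-69634334) and has 19 exons. The loxP sites flank exon 6, and that exon is printed because its removal defines the KO. It spans chr13:69618106-69618190, is 85 bases long and is base 615 to 699 of the transcript. Its length leaves a remainder of 1 when divided by 3, so the reading frame shifts when it is cut out.
Nsun2 exon 6: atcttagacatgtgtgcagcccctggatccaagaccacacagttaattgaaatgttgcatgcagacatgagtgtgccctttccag

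The RNA value counts the whole transcript and not exon 6 alone, so exons that remain in deleted cells add to it. None of the other 7 members of the cytosine methyltransferase family passed the test. Nop2, which methylates ribosomal RNA, had 267 and 281 in KO mice, against 213 and 248 in WT mice (log2 fold change 0.25; limma, adjusted p = 0.354). Of the 14 other tested transcripts within 2 Mb of Nsun2, none was called, and their log2 fold changes ran from -0.25 for Zfp65 to 0.50 for Zfp273.

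Over all 12674 transcripts tested, 163 were higher in Nsun2 KO cortex and 210 were lower (limma on log2(value + 1), Benjamini-Hochberg adjusted p under 0.05). These calls are 1.29% of tested transcripts for the higher and 1.66% for the lower direction, and 1340 and 1254 transcripts passed at an unadjusted p under 0.05. In every called transcript both KO mice lay on the same side of both WT mice. That separation alone was common, since 28.6% of tested transcripts had both KO mice above both WT mice and 23.2% had both below. The median log2 fold change over all tested transcripts was 0.02. Changes were mostly modest, with a median of 0.58 among the higher and -0.71 among the lower transcripts. Only 21 rose and 47 fell by more than 1 on the log2 scale.

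**Figure D1:**
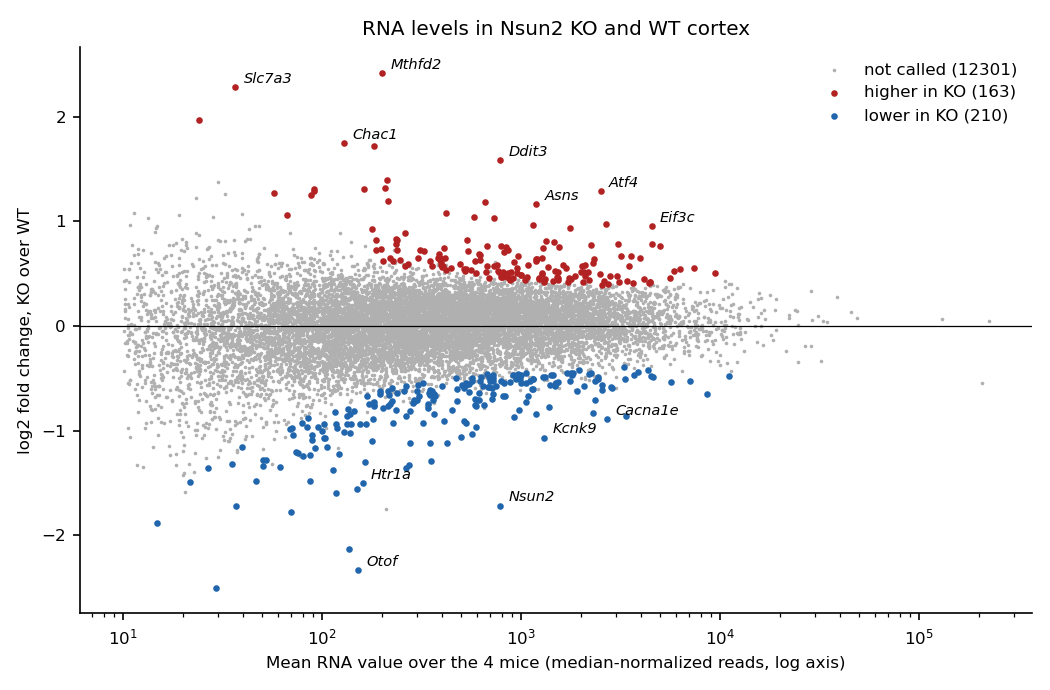
Log2 fold change of KO over WT (y axis) against the mean RNA value of the 4 mice (x axis, log scale) for 12674 transcripts. Red points are the 163 transcripts called higher and blue points the 210 called lower. Named points include Mthfd2 at 2.42, Nsun2 at -1.72 and Otof at -2.33.

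The number of calls rested on WT mouse 2. Without it, 18 transcripts were higher and 6 were lower. Leaving out WT mouse 1 gave 140 and 187. The counts were 94 and 247 with KO mouse 1 left out, and 83 and 164 with KO mouse 2 left out. All 163 higher and 210 lower transcripts kept their sign whichever mouse was left out. Exactly 18 higher transcripts passed with each mouse left out in turn: Mthfd2, Ddit3, Atf4, Asns, Tra2a, Sars, Eif3c, Chac1, Shmt2, Cars, Nup62, Hnrnpa1, Psph, Nars, Eif2s2, Inpp5f, Atf5 and Slc7a3. Among lower transcripts 6 did so, namely Nsun2, Otof, Myl4, Kcnk9, Cacna1e and Stum. Limma without a trend of the variance on expression called only 2 higher and 3 lower transcripts.

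The largest group of strong rises was the integrated stress response. Of 26 tested genes of the ATF4 pathway, 9 were higher and 1 was lower, against 1.29% and 1.66% of all tested transcripts. The median log2 fold change was 0.45, against 0.02 for all transcripts. Atf4, the transcription factor at its centre, had RNA values of 3552 and 3573 in KO mice, against 1591 and 1336 in WT mice (log2 fold change 1.29, SE 0.11; limma, adjusted p = 9.88e-05). Footprints on Atf4 were 139 and 161 in KO mice, against 35.5 and 33.1 in WT mice. Ddit3, which encodes CHOP, had 1190 and 1163 in KO mice, against 433 and 354 in WT mice (log2 fold change 1.58, SE 0.12; limma, adjusted p = 5.94e-05). The WT values of both genes were close together and well separated from the KO values. Atf5, a related bZIP factor, had 298 and 258 in KO mice, against 113 and 61.7 in WT mice, a log2 fold change of 1.72.

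Downstream enzymes and transporters of the pathway showed the same separation. Chac1, an enzyme that breaks down glutathione, had 205 and 193 in KO mice, against 60.5 and 56.7 in WT mice (log2 fold change 1.75, SE 0.18). Asns, asparagine synthetase, had 1600 and 1688 in KO mice, against 740 and 729 in WT mice (log2 fold change 1.16, SE 0.10). Sesn2, a leucine sensor upstream of mTORC1, had 337 and 262 in KO mice, against 146 and 115 in WT mice (log2 fold change 1.19). In each of these 3 genes both KO mice were well above both WT mice. The cationic amino acid transporter Slc7a3 was scarce, with 58.7 and 60.8 in KO mice, against 6.14 and 20.9 in WT mice (log2 fold change 2.28, SE 0.44). Slc7a5, the large neutral amino acid transporter, had 352 and 254 in KO mice, against 153 and 188 in WT mice (log2 fold change 0.82). Cebpg, a bZIP partner of ATF4, had 392 and 410 in KO mice, against 284 and 208 in WT mice (log2 fold change 0.72).

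Of these 9 rises, 6 passed with every mouse left out. Slc7a5 did not pass without KO mouse 1 (limma, adjusted p = 0.206), WT mouse 1 (0.112) or WT mouse 2, Cebpg not without KO mouse 2 (0.0613) or WT mouse 2, and Sesn2 not without WT mouse 2 (0.109 to 0.193 for the 3 genes without WT mouse 2). The 1 member called lower was the kinase gene Rps6ka2, with 799 and 830 in KO mice, against 1146 and 1098 in WT mice (log2 fold change -0.46; limma, adjusted p = 0.0383). Rps6ka2 did not pass with any mouse left out. Pycr1, a proline synthesis enzyme, had 36.6 and 55.9 in KO mice, against 21.1 and 15.9 in WT mice, and just missed the threshold (limma, adjusted p = 0.0592).

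**Figure D2:**
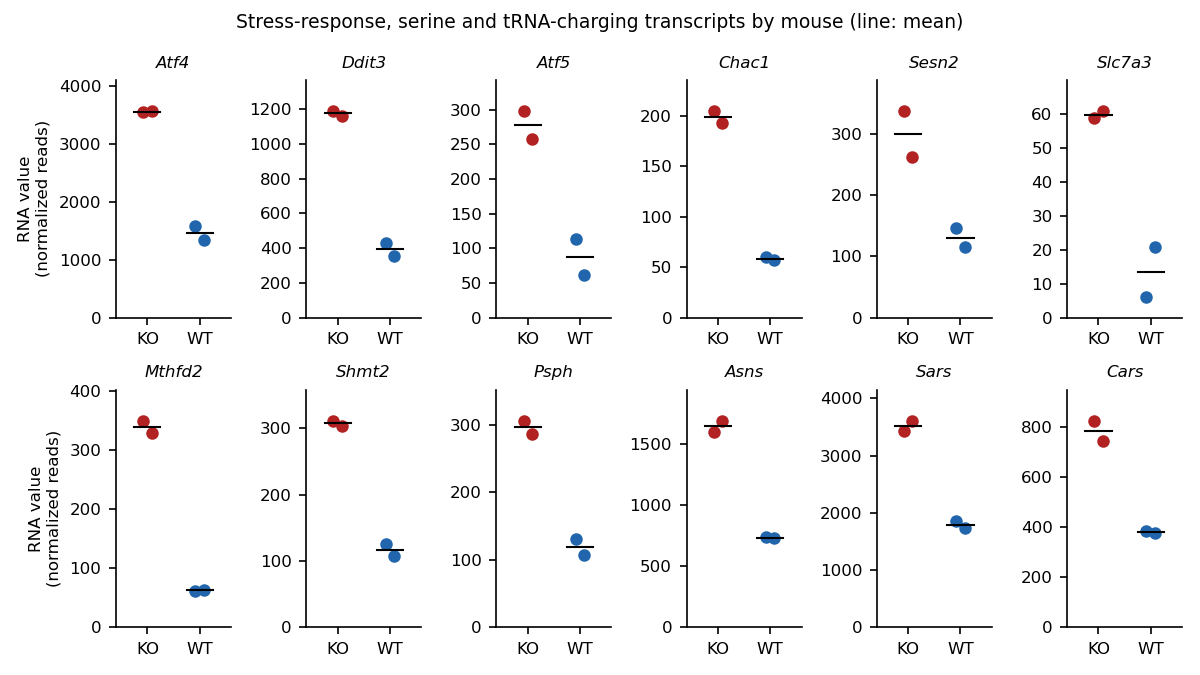
RNA value (y axis, normalized reads, from 0) of 12 transcripts of the stress response, serine metabolism and tRNA charging in each mouse, KO in red on the left and WT in blue on the right, with a line at each mean. In all 12 both KO mice lie above both WT mice, as for Mthfd2 with 349 and 329 against 61.4 and 63.7.

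Enzymes of serine, glycine and one-carbon metabolism were split. These enzymes make serine from glycolysis, turn it into glycine and pass the carbon unit to folate. Of 25 tested members 3 rose and 0 fell, against 1.29% and 1.66% of all tested transcripts, and the median log2 fold change was 0.28. Mthfd2, the mitochondrial folate enzyme of that route, had the largest log2 fold change among the 163 higher transcripts, with 349 and 329 in KO mice, against 61.4 and 63.7 in WT mice (log2 fold change 2.42, SE 0.16; limma, adjusted p = 2.54e-05). Shmt2, which converts serine to glycine in mitochondria, had 311 and 303 in KO mice, against 125 and 108 in WT mice (log2 fold change 1.40, SE 0.16). Psph, the last enzyme of serine synthesis, had 306 and 286 in KO mice, against 131 and 107 in WT mice (log2 fold change 1.32, SE 0.16). All 3 passed with each mouse left out. The other enzymes of serine synthesis did not pass. Psat1 had 564 and 575 in KO mice, against 461 and 425 in WT mice (log2 fold change 0.36; limma, adjusted p = 0.115). Phgdh had 289 and 244 in KO mice, against 266 and 177 in WT mice, and its groups overlapped. Serine racemase, Srr, had 1266 and 1356 in KO mice, against 1346 and 1305 in WT mice (log2 fold change -0.02).

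Cytosolic aminoacyl-tRNA synthetases, which load amino acids onto tRNAs, held 11 of the 163 rises. Of 23 tested synthetases and their scaffold proteins, 11 were higher, against 1.29% of all tested transcripts. All 23 had a positive log2 fold change, the median was 0.46, and in 21 both KO mice exceeded both WT mice. Summed over the list, RNA values were 26911 and 27835 in KO mice, against 18536 and 17349 in WT mice. Cars, for cysteine, had 823 and 743 in KO mice, against 384 and 376 in WT mice (log2 fold change 1.04, SE 0.12). Sars, for serine, had 3437 and 3609 in KO mice, against 1862 and 1732 in WT mice (log2 fold change 0.97, SE 0.10). Nars, for asparagine, and Aars, for alanine, followed with log2 fold changes of 0.79 and 0.77. Gars, which charges tRNA with glycine, had 2688 and 2874 in KO mice, against 1970 and 1711 in WT mice (log2 fold change 0.60, SE 0.11; limma, adjusted p = 0.0141). Yars, Mars, Eprs, Tars, Vars and Iars were also called, between 0.46 and 0.82. Dars was lowest in the list, at 0.12. Leaving out KO mouse 2 left 7 synthetases called, and leaving out WT mouse 2 left Cars, Sars and Nars, 3 in all.

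Translation factors had smaller differences. Of 53 tested, 5 rose and 0 fell, against 1.29% and 1.66% of all tested transcripts, with a median of 0.18 and 46 positive. Eif3c, a core subunit of the eIF3 initiation complex, had 5901 and 6055 in KO mice, against 3257 and 2929 in WT mice (log2 fold change 0.95, SE 0.10; limma, adjusted p = 0.000531). Eif2s2, the beta subunit of eIF2, had 1801 and 1939 in KO mice, against 1087 and 1055 in WT mice (log2 fold change 0.80, SE 0.10). All 13 tested eIF3 subunits were positive, from 0.05 to 0.95, so Eif3c stood well above the median of its complex, which was 0.29. Eif3g, Eif1 and Eif1a were also called, at 0.62, 0.44 and 0.54. Without KO mouse 1 or without WT mouse 2 the called factors were 2, and without KO mouse 2 or WT mouse 1 they were 3. Eif3g did not pass without KO mouse 1 or WT mouse 2, and Eif1 and Eif1a failed with each of the 4 mice left out. Of 57 enzymes that modify, trim or export tRNA, none was called by limma, with or without voom weights, 3 were higher at an unadjusted p under 0.05, and 45 were positive with a median of 0.11. Pus3, a pseudouridine synthase, had the smallest p of them (105 and 125 in KO mice, against 83.4 and 71.7 in WT mice; limma, adjusted p = 0.141).

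Promoters of the higher transcripts were searched for the C/EBP-ATF response element, the site that ATF4 and C/EBP proteins bind together. The motif was TGATGNAA, read on both strands (TTNCATCA on the other), in RefSeq promoters of 250 bases before to 50 after each start (GRCm38.p6). A promoter was matched by symbol for 118 of the higher symbols, 142 of the lower and 9874 of all tested. The motif was found in 9.32% of the higher symbols, 4.93% of the lower and 2.60% of all tested, and in 3.97% of all 32851 promoters of the table. In the form TGATGCAA the shares were 5.93%, 0.704% and 0.648%. The cAMP response element TGACGTCA, searched for comparison, was in 2.54%, 4.23% and 3.64%. Of 15 synthetase-list genes with a promoter 5 held TGATGNAA, and of 21 stress-response genes 8. A match is only a match of letters, and the shares are descriptions with no test.

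The windows of 30 bases around the motif are printed for 6 of the called stress-response and synthetase genes that held it. They show the letters behind the match. Each is written 5′ to 3′ on the strand of the gene, and capitals mark the motif on either strand.
Chac1 (chr2:119351038-119351067, plus strand): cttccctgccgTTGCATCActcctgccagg
Asns (chr6:7693214-7693243, minus strand): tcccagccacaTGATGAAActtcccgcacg
Yars (chr4:129189895-129189924, plus strand): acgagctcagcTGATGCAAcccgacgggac
Tars (chr15:11399655-11399684, minus strand): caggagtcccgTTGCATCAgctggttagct
Gars (chr6:55037960-55037989, plus strand): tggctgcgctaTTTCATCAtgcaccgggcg
Iars (chr13:49682126-49682155, plus strand): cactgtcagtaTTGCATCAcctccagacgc

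The first base of the motif was 193 bases before the RefSeq start in Chac1, 30 in Gars, 23 in Asns and 15 in Tars. It was 3 and 7 bases after that start in Yars and Iars. The RefSeq start is not always that of the measured transcript, which for Iars begins at chr13:49687393. Log2 fold changes of these 6 genes ran from 0.46 for Iars to 1.75 for Chac1. Called genes with a match that belong to neither list were Arl14ep, Hnrnpa2b1, Eps15 and Hax1, at 0.57 to 0.69. The Eps15 window, chr4:109342918-109342947, lay inside the measured transcript, which begins at chr4:109280268.

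Other stress programmes had few or no calls. Over all tested transcripts 1.29% were called higher and 1.66% lower, so lists this short would hold few calls in any case. Their counts therefore do not set them apart from other transcripts. Of 21 tested chaperones and degradation factors of the endoplasmic reticulum, limma called 0, with 1 higher and 2 lower at an unadjusted p under 0.05, and the median was -0.09. Herpud1, a target of the unfolded protein response, came closest with 520 and 399 in KO mice, against 304 and 300 in WT mice (limma, adjusted p = 0.0515). Herpud1 passed with a minimum mean of 50 (limma, adjusted p = 0.0477), with GC and length corrected (0.0372) and without KO mouse 2 (0.0119), and the chaperone Pdia4 was called lower without KO mouse 1 (log2 fold change -0.75). Without KO mouse 2 the median of this list was 0.12. None of 18 heat shock genes, 14 p53 targets or 17 interferon-stimulated genes was called by limma, with medians of 0.12, 0.00 and -0.05. At an unadjusted p under 0.05 the heat shock genes had 4 higher, the p53 targets 2 higher and the interferon genes 1 higher and 1 lower. None of the alternatives tried called a heat shock, p53 or interferon gene, voom weights in limma included. Cdkn1a, the p53 target that halts the cell cycle, had 164 and 174 in KO mice, against 113 and 113 in WT mice (limma, adjusted p = 0.0862). Of 30 immediate early genes, 1 was lower and none higher, against 1.66% and 1.29% of all tested transcripts. Jun, a subunit of the AP-1 factor, had 600 and 498 in KO mice, against 948 and 828 in WT mice (log2 fold change -0.70; limma, adjusted p = 0.0166), and did not pass without KO mouse 2, WT mouse 1 or WT mouse 2. Clock and cholesterol synthesis genes had no call in limma, with or without voom weights, and 1 of each was lower and 1 clock gene higher at an unadjusted p under 0.05, with Nfil3 at 0.45 and Insig1 at -0.40 as the members of smallest p.

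Transcripts of the ribosome, the respiratory chain and the proteasome mostly had small positive log2 fold changes, and few of them passed the test. Over all tested transcripts 1.29% were called higher. Of 78 nuclear-encoded subunits of oxidative phosphorylation, 77 were positive, 12 were called higher and the median was 0.29. All 37 complex I genes were positive, and 7 of them were called. Ndufa5 of complex I had 1797 and 1831 in KO mice, against 1298 and 1234 in WT mice (log2 fold change 0.52, SE 0.10), and Atp5j2 of the ATP synthase had 1088 and 1145 in KO mice, against 768 and 802 in WT mice (0.51). Ndufb8 and Atp5o rose by 0.46 and 0.45. Of 82 cytosolic ribosomal proteins, 81 were positive and 4 were called, with a median of 0.24. The 4 were all of the large subunit, Rpl15, Rpl4, Rpl24 and Rpl19, between 0.42 and 0.48. Mitochondrial ribosomal proteins had a median of 0.24 with 2 of 78 called, near the share over all transcripts, Mrpl46 at 0.65 and Mrpl52 at 0.57. Proteasome subunits had a median of 0.21 with 2 of 45 called, Psma2 and Psmd6 at 0.47 and 0.46.

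These lists hold short coding sequences, and change in RNA level followed coding length over the whole transcriptome. Transcripts were divided by coding length into 5 groups of about equal number. In the shortest group, up to 771 bases, the median log2 fold change was 0.14, 2.71% were called higher and 0.797% lower. In the longest group, from 2577 bases up, the median was -0.06, 0.837% were called higher and 3.47% lower. The groups between ran in order at 0.05, 0.01 and -0.02. With each library corrected for GC content and coding length, the medians of the oxidative phosphorylation and cytosolic ribosomal lists were 0.19 and 0.12, and 0 and 2 members were called. Corrected medians of the synthetase and stress-response lists were 0.51 for each, with 12 and 9 members higher. The part of coding length or RNA quality in these small rises was not tested further. Called oxidative phosphorylation genes numbered 6 without WT mouse 1 and 0 without any of the other 3 mice, and called cytosolic ribosomal and proteasome genes were 0 with any 1 mouse left out. Of the mitochondrial ribosomal genes 1 was called without KO mouse 2 or WT mouse 1 and none without the others.

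**Figure D3:**
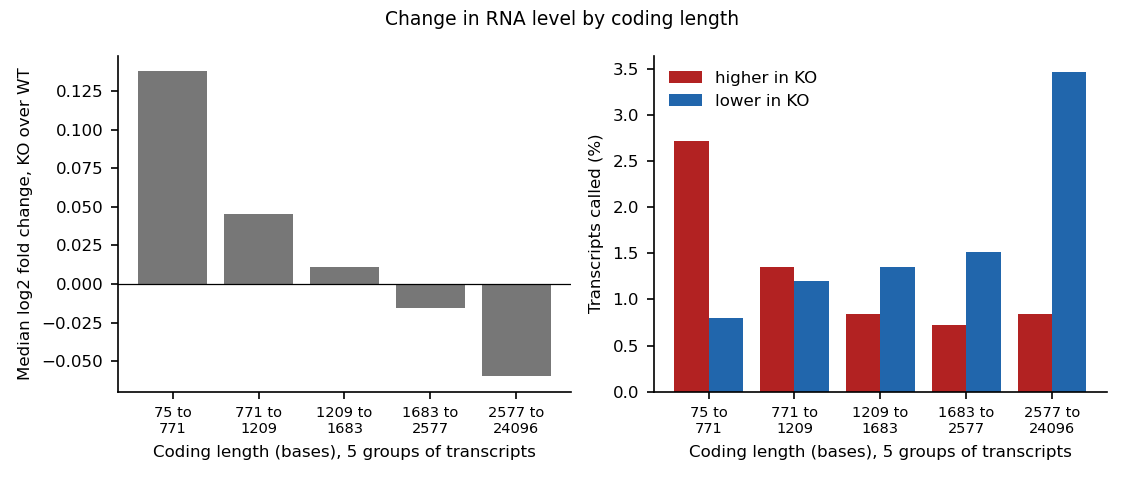
Left, median log2 fold change of KO over WT in 5 groups by coding length in bases. Right, percent of transcripts called higher (red) and lower (blue) in KO in the same groups. The median goes down from 0.14 in the shortest group to -0.06 in the longest.

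Among single genes with large rises outside these groups were Arap3, a GTPase-activating protein, and Cox6a2, a muscle-type subunit of cytochrome oxidase. Arap3 had 131 and 129 in KO mice, against 57.9 and 46.8 in WT mice (log2 fold change 1.31, SE 0.21). Cox6a2 had 84.2 and 78.5 in KO mice, against 33.3 and 32.9 in WT mice (log2 fold change 1.27, SE 0.23). Etnppl, a phospholipid enzyme of astrocytes, varied more, with 161 and 90.3 in KO mice, against 48.3 and 51.8 in WT mice. Arap3, Cox6a2 and Etnppl did not pass without WT mouse 2 (limma, adjusted p = 0.0975 to 0.171), and Etnppl failed also without KO mouse 1 or WT mouse 1. Nup62 of the nuclear pore had 595 and 550 in KO mice, against 267 and 276 in WT mice (log2 fold change 1.07), and the phosphoinositide phosphatase Inpp5f had 1600 and 1631 in KO mice, against 933 and 999 in WT mice (0.74). These last pair were singled out after their values were seen, because they passed with each mouse left out. The Nup62 transcript (chr7:44816088-44830812, plus strand) overlaps the start of that of Atf5 (chr7:44812256-44816658, minus strand), which rose by 1.72. Whether the rises of Nup62 and Atf5 are linked was not tested.

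Most of the largest falls were in scarce transcripts. Otof, otoferlin, a calcium sensor for vesicle fusion, had 51.0 and 48.1 in KO mice, against 272 and 236 in WT mice (log2 fold change -2.33, SE 0.18; limma, adjusted p = 5.94e-05). Footprints on Otof were 11.7 and 11.7 in KO mice, against 54.4 and 50.6 in WT mice. In Otof and in the genes that follow, both KO mice were far below both WT mice. The secreted protein gene Ccdc3 had 37.7 and 64.7 in KO mice, against 199 and 244 in WT mice (log2 fold change -2.13, SE 0.24). Cntnap5b, a contactin-associated adhesion protein, had 49.9 and 65.7 in KO mice, against 154 and 199 in WT mice (log2 fold change -1.60, SE 0.21). Pcdh8, a protocadherin of synapses, had 38.8 and 51.0 in KO mice, against 105 and 151 in WT mice (log2 fold change -1.48, SE 0.24).

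Others of the 15 largest falls were Plk5 and Alox12b, at -1.78 and -1.72, Tnnc1 at -1.56, the serotonin receptor Htr1a at -1.50, Angpt1, a ligand of the Tie2 receptor, at -1.48, Vwa5b1 at -1.38, the calcium release channel Ryr1 at -1.36, the protease Pappa2 at -1.35 and the collagen Col23a1 at -1.34. Pappa2 had 44.3 and 25.5 in KO mice, against 104 and 72.7 in WT mice. Besides Nsun2, only Otof of the large falls named here passed with each mouse left out. Without WT mouse 2 the other 12 had adjusted p-values of 0.0689 to 0.214 (limma), and Pappa2 failed also without KO mouse 2 or WT mouse 1, as did Alox12b and Plk5 without WT mouse 1. In most of them WT mouse 2 was the higher WT mouse, as for Htr1a with 82.0 and 82.4 in KO mice, against 197 and 279 in WT mice.

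**Figure D4:**
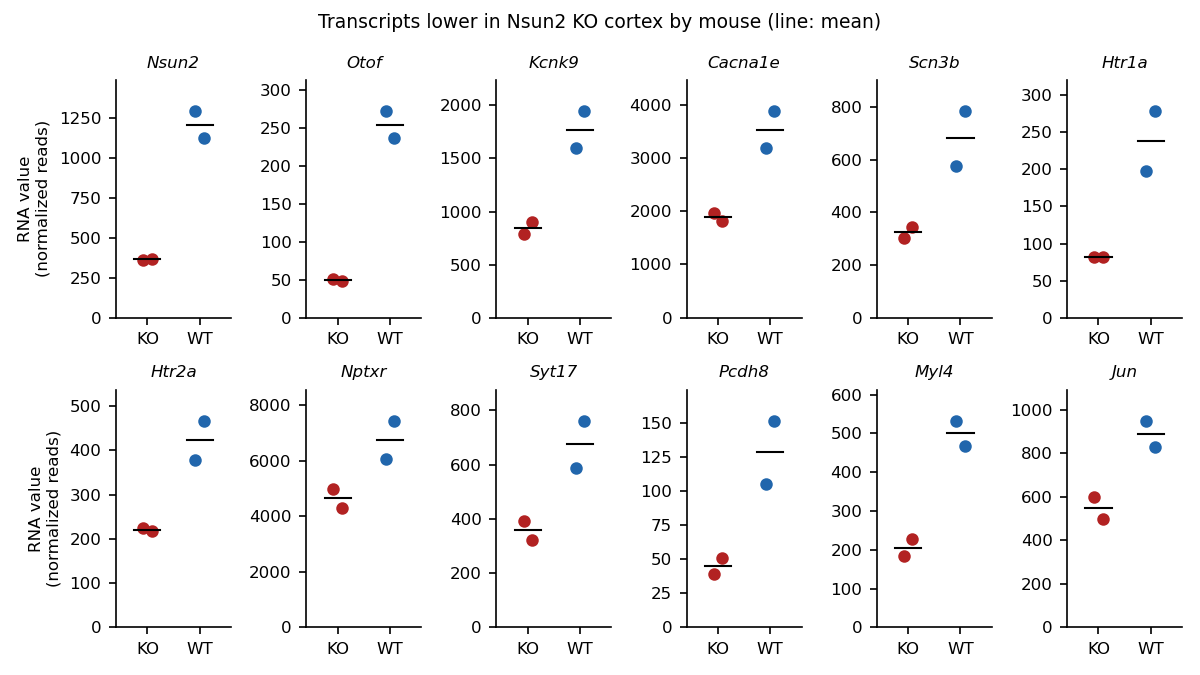
RNA value (y axis, normalized reads, from 0) in each mouse of 12 transcripts called lower, KO in red on the left and WT in blue on the right, with a line at each mean. Both KO mice lie below both WT mice in all 12, as for Kcnk9 with 785 and 902 against 1596 and 1947.

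Voltage-gated and leak ion channels, which set neuronal excitability, held 9 of the 210 falls. Of 76 tested, 9 were lower and 0 higher, 58 were negative and the median was -0.19, against 1.66% of all transcripts called lower. Kcnk9, the leak potassium channel TASK-3, had 785 and 902 in KO mice, against 1596 and 1947 in WT mice (log2 fold change -1.07, SE 0.12; limma, adjusted p = 0.00114). Cacna1e, the pore of R-type calcium channels, had 1968 and 1825 in KO mice, against 3181 and 3882 in WT mice (log2 fold change -0.89, SE 0.11; limma, adjusted p = 0.00205). Both passed with each mouse left out. Scn3b, an auxiliary sodium channel subunit, had 301 and 345 in KO mice, against 576 and 784 in WT mice (log2 fold change -1.06, SE 0.15). Kcnh5 had 556 and 567 in KO mice, against 850 and 911 in WT mice (-0.65). Kcnq5, Cacna1h, Cacna1b, Kcnv1 and Kcnh3 were also called, between -0.47 and -0.72. Calcium channel genes were negative in 13 of 14 cases. In the longest group by coding length, from 2577 bases up, 3.47% of all transcripts were called lower. Coding lengths were 6819 bases for Cacna1e, 6981 for Cacna1b, 7077 for Cacna1h, 3285 for Kcnh3, 2964 for Kcnh5 and 2856 for Kcnq5. Kcnv1, Kcnk9 and Scn3b were shorter, at 1509, 1206 and 645. The part of coding length in these falls was not tested further. Without WT mouse 2 the called channels were Kcnk9 and Cacna1e alone.

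Glutamate receptors and postsynaptic proteins mostly had small negative log2 fold changes, and few passed the test. Of 59 tested, 52 were negative, 5 were called lower and 0 higher, against 1.66% and 1.29% of all tested transcripts, and the median was -0.33. In 42 of the 59 both KO mice were below both WT mice, a separation seen in 23.2% of all tested transcripts. All 4 AMPA (Gria), 6 NMDA (Grin), 5 kainate (Grik) and 7 metabotropic (Grm) receptor genes were negative, with subgroup medians of -0.42, -0.41, -0.43 and -0.41, and only Grm7 among them was called. Grm7, a presynaptic metabotropic receptor, had 257 and 308 in KO mice, against 389 and 520 in WT mice (log2 fold change -0.67; limma, adjusted p = 0.0443). Nlgn3, a neuroligin of the postsynaptic membrane, had 915 and 876 in KO mice, against 1207 and 1526 in WT mice (-0.60), and Shisa7, an auxiliary receptor subunit, had 423 and 388 in KO mice, against 572 and 632 in WT mice (-0.57). Gria3 and Grin2a just missed, with 1728 and 1857 in KO mice, against 2195 and 2981 in WT mice for Gria3, and the same adjusted p of 0.0592 in limma. The list median stayed negative with coding length and GC corrected (-0.29, 6 called) and without any 1 mouse (-0.21 to -0.41), but 0 members were called without WT mouse 2, 11 without WT mouse 1, and 8 without KO mouse 1.

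Of the synaptic genes the study singled out from protein data and described here, Nptxr passed the test. Nptxr, the neuronal pentraxin receptor, had 4984 and 4318 in KO mice, against 6054 and 7442 in WT mice (log2 fold change -0.53, SE 0.12; limma, adjusted p = 0.0349). It did not pass without KO mouse 2 or WT mouse 2. Nrgn, neurogranin, had 27170 and 29669 in KO mice, against 40284 and 31892 in WT mice (log2 fold change -0.34; limma, adjusted p = 0.16), and passed only with GC and length corrected (0.0178). Gria2 had 4711 and 4637 in KO mice, against 4976 and 6706 in WT mice (-0.31). Dlg4, the scaffold PSD-95, had 11381 and 10742 in KO mice, against 12962 and 11940 in WT mice (-0.17). The values of Syngr3 overlapped between genotypes, at 607 and 424 in KO mice, against 455 and 571 in WT mice (-0.01). Cacng8 was not analysed here.

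Of 56 genes of the presynaptic release machinery 1 was higher and 3 were lower, with a median of -0.06. The share called higher was near the 1.29% of all tested transcripts, and the share called lower was above the 1.66%. With so few calls, nothing particular is read into the list. Vamp1, a vesicle SNARE, had 2114 and 2539 in KO mice, against 1349 and 1084 in WT mice (log2 fold change 0.94, SE 0.13; limma, adjusted p = 0.00332). The lower genes were the calcium sensors Syt17, with 393 and 324 in KO mice, against 589 and 762 in WT mice (-0.91), and Doc2b, with 104 and 86.3 in KO mice, against 168 and 198 in WT mice (-0.94), and the vesicle protein Synpr at -0.81. None of the 4 passed without WT mouse 2 (limma, adjusted p = 0.0713 to 0.25), and Doc2b and Synpr failed also without KO mouse 2. Without WT mouse 1 the list had 6 higher calls, and without KO mouse 1 it had 7 lower calls. Of 25 neuropeptide genes 1 was lower, the processing enzyme Pcsk1, with 156 and 169 in KO mice, against 227 and 328 in WT mice (-0.75; limma, adjusted p = 0.0479), which did not pass without KO mouse 1 or WT mouse 2.

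Collagens and related glycine-repeat proteins, whose chains are built of glycine triplets, had negative log2 fold changes in 20 of 23 tested cases. Of the 23, 6 were called lower and 0 higher, against 1.66% and 1.29% of all tested transcripts, and the median was -0.48. Col12a1 had 77.6 and 114 in KO mice, against 233 and 234 in WT mice (log2 fold change -1.30, SE 0.20; limma, adjusted p = 0.00508). Col19a1 had 208 and 236 in KO mice, against 376 and 355 in WT mice (-0.72), and the transmembrane collagen Col23a1 had 29.9 and 26.5 in KO mice, against 64.9 and 81.6 in WT mice (-1.34). Col6a1, Col25a1 and C1ql3, a synaptic C1q-like protein, fell by 1.24, 0.84 and 0.80 on the log2 scale. Coding lengths of Col12a1, Col19a1 and Col6a1 were 9195, 3408 and 3075 bases, in the longest group, where 3.47% of all transcripts were called lower. Col25a1, Col23a1 and C1ql3 were shorter, at 1998, 1596 and 765. The part of coding length was not tested further. Without WT mouse 2 none of the 6 passed (limma, adjusted p = 0.115 to 0.237), and without KO mouse 2 or WT mouse 1 the called members were 4.

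**Figure D5:**
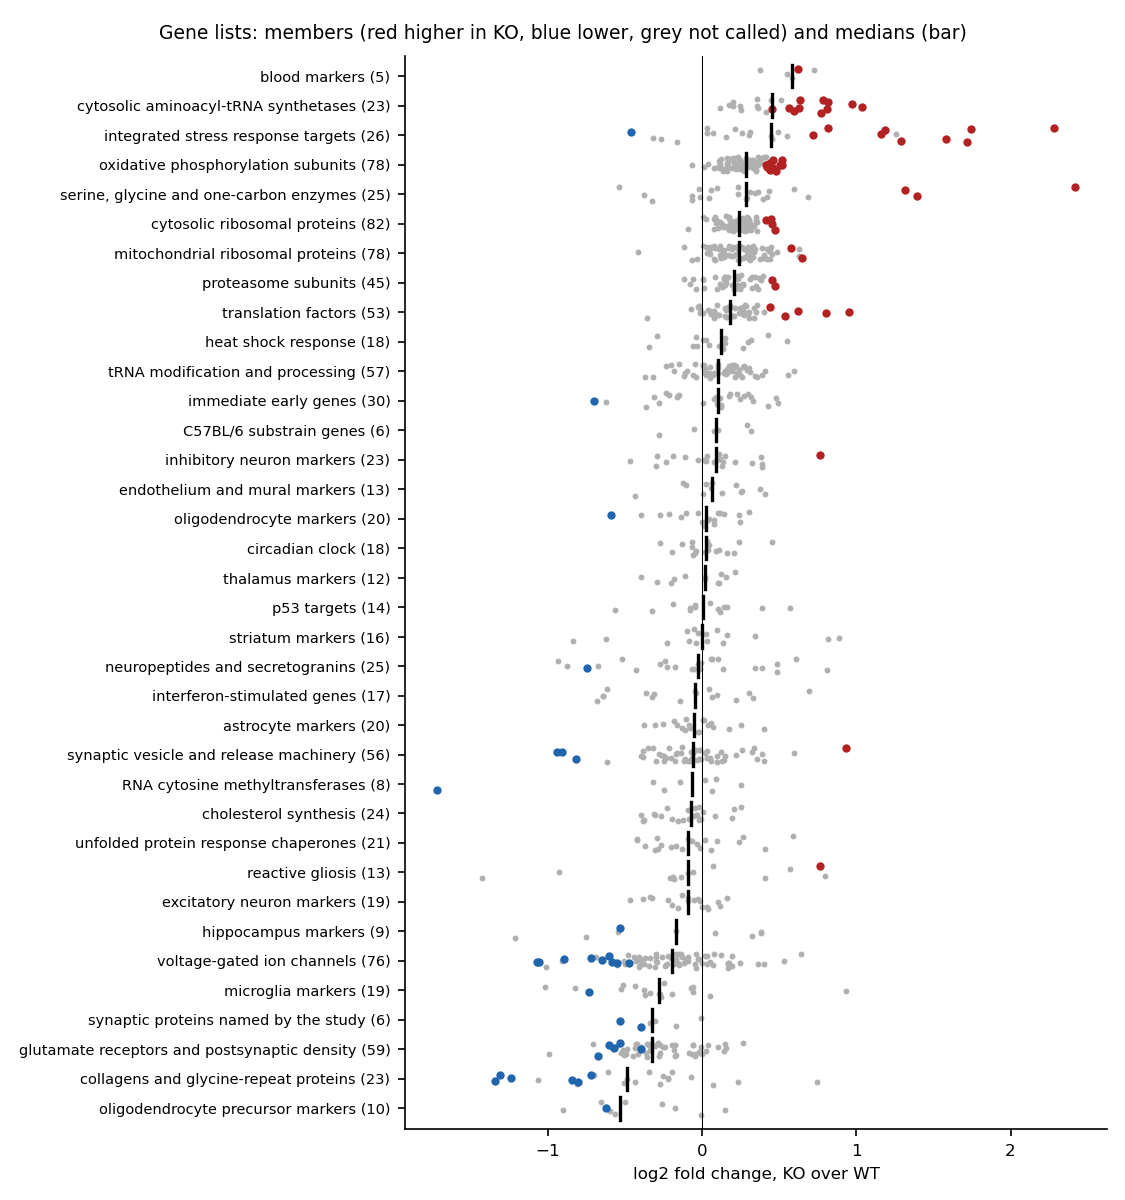
Log2 fold change of KO over WT (x axis) of the tested members of each gene list with 5 or more of them (rows, number tested in brackets), with red for called higher, blue for called lower, grey for not called and a bar at the median. Medians run from 0.59 for blood markers to -0.53 for oligodendrocyte precursor markers, with synthetases at 0.46 and glutamate receptors at -0.33.

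Markers of cell types were read to see whether the tissue differed in make-up. With all mice no marker list held more than 1 call, against 1.29% called higher and 1.66% lower of all tested transcripts. The tissue expressed cortical excitatory neuron markers in both genotypes, with Camk2a at 26978 and 26687 in KO mice, against 30778 and 30503 in WT mice (log2 fold change -0.19). None of 19 excitatory markers was called by limma, with or without voom weights, 1 was called lower with GC and length corrected (Nrgn) and 1 without KO mouse 1 (Sv2b), 4 were lower at an unadjusted p under 0.05, their median was -0.09, and their sums were 119843 and 120216 in KO mice, against 135777 and 130486 in WT mice. Among 23 inhibitory neuron markers Pvalb was higher, with 931 and 1073 in KO mice, against 655 and 529 in WT mice (log2 fold change 0.76; limma, adjusted p = 0.0123), while Gad2 and Gad1 were at 0.38 and 0.39 without passing. Of the 23 inhibitory markers 16 were positive and 7 negative, with a median of 0.09. At an unadjusted p under 0.05 in limma, 4 were higher and 2 lower. Sums of inhibitory markers were 13852 and 13897 in KO mice, against 12036 and 12237 in WT mice. Abundant genes weigh more in such sums, among them Gad1 and Gad2 and, for excitatory neurons, Camk2a and Nrgn. Of 13 tested gliosis genes 8 were negative, with a median of -0.09, and of 20 astrocyte markers 12 were negative, with a median of -0.05. Gfap, an intermediate filament of reactive astrocytes, had 889 and 805 in KO mice, against 576 and 431 in WT mice (0.76), but 12 other gliosis genes and 20 astrocyte markers had no call, apart from the astrocyte marker Slc1a3, called lower without WT mouse 1.

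Hba-a2, a haemoglobin gene, had 747 and 676 in KO mice, against 400 and 531 in WT mice (log2 fold change 0.62; limma, adjusted p = 0.0388), and all 5 blood markers were positive, with sums of 1942 and 1843 in KO mice, against 1063 and 1445 in WT mice. Cx3cr1, a microglial chemokine receptor, had 124 and 149 in KO mice, against 206 and 249 in WT mice (-0.73). Of 19 tested microglia markers 17 were negative, with a median of -0.28. Summed microglia markers were 1116 and 900 in KO mice, against 1019 and 1628 in WT mice, so WT mouse 2 stood above the other 3 mice. Enpp2 of oligodendrocytes, Pcdh15 of their precursors and Calb1 of the hippocampal list were called lower, at -0.59, -0.62 and -0.53. Each was the only call of its list, against 1.66% of all tested transcripts called lower. With 1 call per list, nothing particular is read into these calls. Of 20 oligodendrocyte markers 13 were positive, with a median of 0.03, and of 9 hippocampal markers 4 were positive and 5 negative, while 9 of 10 precursor markers were negative. Precursor sums were 1032 and 1002 in KO mice, against 1287 and 1406 in WT mice. Striatal sums differed more within a genotype than between them, at 6594 and 9225 in KO mice, against 9520 and 6328 in WT mice. None of 16 striatal markers was called with all mice in limma, with 0 higher and 1 lower at an unadjusted p under 0.05, but 3 were called higher without KO mouse 1 and 3 others lower without KO mouse 2. No marker call remained without WT mouse 2 (limma, adjusted p = 0.0623 to 0.237 for the 7). Without KO mouse 1, Calb1, Cx3cr1 and Hba-a2 did not pass, without KO mouse 2 Enpp2 and Pcdh15, and without WT mouse 1 Cx3cr1, Hba-a2 and Pcdh15. The part of these markers in the other results was not tested.

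Called transcripts of both directions had somewhat more glycine codons, by median, than all tested transcripts. Glycine codons made up a median of 6.67% of codons in higher transcripts, 6.84% in lower transcripts and 6.30% in all tested transcripts with a coding sequence. In 5 groups by glycine content, the share called lower was 1.12% in the poorest group and 2.03% in the richest. The share called higher was 1.24% and 1.75%. In order, the groups between had 1.12%, 1.91% and 2.15% called lower. They had 1.28%, 1.04% and 1.16% called higher, with no steady rise. Near-identical histone H4 genes called higher, such as Hist1h4d, had 16.5% glycine codons, in the richest group. Their part in its share was not tested. For the glycine codon GGA alone, 1.36% and 1.75% were called lower in the poorest and richest groups, and 1.55% and 1.39% higher. GC content of coding sequences had medians of 52.6% in higher, 55.4% in lower and 53.2% in all tested transcripts. By chromosome, chromosome 13 had the highest share of higher calls, 17 of 499 transcripts or 3.41%, and chromosome 1 the highest share of lower calls, 20 of 730 or 2.74%.

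The 5 transcripts of highest mean value in WT mice were not called. Among them were the transcript ENSMUST00000183626, which had no match in the annotation, Tmem38b, Lars2 and Snap25. Tmem38b, a channel of the endoplasmic reticulum, varied most, with 126208 and 218875 in KO mice, against 273093 and 215049 in WT mice. Its footprints were only 5.93 and 9.02 in KO mice, against 7.24 and 8.39 in WT mice. Lars2 had RNA values of 122307 and 144853 in KO mice, against 135032 and 120270 in WT mice. Footprints on Lars2 were also few, at 34.5 and 20.8 in KO mice, against 47.7 and 42.2 in WT mice. Those on ENSMUST00000183626 were 65.9 and 65.0 in KO mice, against 60.2 and 70.9 in WT mice. Snap25, a SNARE of the synapse, had 45195 and 49489 in KO mice, against 44144 and 42380 in WT mice (log2 fold change 0.13).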

How the data were processed

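RNA was read from total-RNA libraries of adult mouse cortex, 2 Nsun2 KO and 2 WT mice. Per the study's methods, which were written for the ribosome profiling, the authors trimmed reads (cutadapt 3.1), removed duplicates by molecular identifier (UMI-tools 1.1.1), aligned to the transcript of longest coding sequence per gene (Bowtie2 2.4.2, Ensembl annotation, mouse) after depleting rRNA and tRNA, handled alignments with SAMtools 1.11 and median-normalized the counts. The deposited values are therefore a normalized read signal and not raw counts. They were whole multiples of 1 step per library (100% of values, tolerance 0.001), and the lowest was 5 or 6 steps.

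Of 12719 transcripts, 12588 were matched to symbols in the GENCODE annotation and 131 were not. Transcripts with a mean of at least 10 over the 4 mice (12674, leaving out 45) were tested on log2(value + 1) with limma 3.58.1 in R 4.3.3, with a trend of variance on expression, all 4 mice in the fit and Benjamini-Hochberg adjustment over all transcripts. The pseudocount understates fold changes of scarce transcripts. With 2 mice per genotype, p-values measure only the spread between these mice. Limma draws the variance of each transcript toward that of transcripts of like level, with 10.3 prior degrees of freedom. A p-value therefore rests largely on spread pooled over transcripts. The test was checked on simulated data, where 55% of changes of 0.5 and 91% of changes of 1 on the log2 scale were recovered. Of unchanged transcripts 0.016% were called. The simulation gave all transcripts and mice 1 shared dispersion. It therefore cannot speak to how the calls depend on WT mouse 2 or on the variance trend.

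Named were Nsun2, the 15 largest rises and falls among calls with a mean of at least 50 in the higher genotype, the 5 highest values in WT, up to 4 called members of each of 38 gene lists (or the member of smallest p) and the synaptic genes the study named. Other genes were added after their values were seen, and a few items that the rule admits are not reported here. The members and lists were chosen with earlier results of these data known. Alternatives covered the pseudocount, filter, scaling, GC and length, replicate block, variance trend and each mouse left out.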

Additional observations from a re-analysis of the deposited data

How the results depend on the processing

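Under the pseudocounts, filters and scalings the count of higher transcripts was 108 to 170, lowest with quantile normalization (108), and that of lower transcripts 164 to 228. With GC and length corrected, 164 were higher and 234 lower, of which 118 of the 163 and 177 of the 210 were shared with the reported calls. With voom weights in limma, chosen after seeing the data, 103 were higher and 142 lower. Limma without the variance trend called 2 higher and 3 lower. With the replicate block, 4 were higher and 3 lower. The replicate numbers carry no stated pairing, and deviations of same-numbered mice correlated at -0.083. Leaving out 1 mouse gave 18 to 140 higher and 6 to 247 lower transcripts, lowest without WT mouse 2. The cause of these shifts was not tested. Of 143 named transcripts 108 were called, and none of these changed sign under any setting. Of those 108, 84 missed the threshold without WT mouse 2. Sign changes occurred only in uncalled transcripts with small log2 fold changes. With 1 mouse left out, the values ran from -0.0593 to 0.185 for Lars2, -0.00012 to 0.582 for Phgdh, -0.0783 to 0.654 for Foxj1, -0.017 to 0.104 for ENSMUST00000183626, -0.267 to 0.251 for Syngr3 and -0.0664 to 0.0327 for Srr. The planned edgeR and DESeq2 fits were not run, because whole reads could not be recovered with certainty.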

Other observations

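Several gene groups outside the lists of the report stood out, and these lists were put together after the values were seen, so their counts are descriptions only. Of 65 replication-dependent histone genes 19 were higher in Nsun2 KO cortex and 0 lower, against 1.29% and 1.66% of all tested transcripts. Their median log2 fold change was 0.56. Their summed RNA values were 15216 and 15366 in KO mice, against 10919 and 8909 in WT mice. Hist2h2ab had 234 and 232 in KO mice, against 106 and 81.6 in WT mice, and Hist1h1b, a linker histone, had 119 and 139 in KO mice, against 57.9 and 46.8 in WT mice. Histone genes made up 12 of the 17 higher transcripts of chromosome 13, and 5 of its 447 other genes were higher (1.12%). Histone genes are near-identical copies, so reads may be split between them and single values are uncertain. Without WT mouse 2, 0 of the 65 were called.

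Of 30 hnRNP, SR and Tra2 splicing factors 7 were higher and 0 lower, against 1.29% and 1.66% of all tested transcripts, with a median of 0.14. Tra2a, a splicing activator, had 938 and 894 in KO mice, against 378 and 426 in WT mice (log2 fold change 1.19). Hnrnpa1 had 5633 and 5947 in KO mice, against 3446 and 3288 in WT mice (0.78). Both passed with each mouse left out, and without WT mouse 2 they were the 2 called members.

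All 8 serotonin receptor genes tested were negative and 4 were called lower, against 1.66% of all tested transcripts. The 4 were Htr1a, Htr2a, Htr1f and Htr2c. Htr2a, a receptor of cortical pyramidal neurons, had 225 and 217 in KO mice, against 378 and 467 in WT mice (log2 fold change -0.92). None of the 4 passed without WT mouse 2. Of 15 muscle myosin, troponin and ryanodine receptor genes 4 were lower, against 1.66% of all tested transcripts. These were Myl4, Ryr1, Tnnc1 and Myh7. Myl4 had 183 and 227 in KO mice, against 533 and 468 in WT mice (-1.29), and was the 1 of them called without WT mouse 2.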
